A study of Mus musculus with 4 samples.

Results

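Isl1, Isl2, Lhx1, Lhx2 and Lhx9 encode LIM homeodomain transcription factors, and their transcripts were followed here in cells of the mouse Mesp1 lineage. The genes were chosen by symbol, with Isl1 and Lhx2 in the foreground, and all 5 were found among the 27998 genes of the count files, each once. Single-cell RNA sequencing had been performed on 4 libraries, 1 per stage (E8.0, then E8.25, then E9.5, then E10.5, in days of embryonic development), from embryos of the genotype Mesp1Cre;Rosa26-GFPflox/+ on the strain Swiss Webster. Every library came from pooled embryos, and GFP-positive, DAPI-negative (living) cells were sorted from the upper body for the 2 early libraries (E8.0, E8.25) and from pharyngeal apparatus and heart for the 2 late ones (E9.5, E10.5), so that dissected region changed together with stage. All 4 libraries carried the same Mesp1Cre and reporter alleles. Cre is expressed there from Mesp1, a gene of early mesoderm, and the reporter stays on in all descendants of those cells, so the sorted cells included blood, endothelium and heart muscle beside the progenitors.

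LIM homeodomain proteins bind DNA through a homeodomain and bind partner proteins, above all Ldb1 and Ldb2, through their LIM zinc-finger domains. Isl1 is the classical marker of second heart field progenitors, the mesoderm that adds cells to the growing heart, and is lost from most of these cells as they become heart muscle, whereas Lhx2 is known in the pharyngeal mesoderm as one of the regulators of the head and neck (branchiomeric) muscle progenitors, beside Tbx1, Tcf21 and Msc. Both groups of progenitors derive from a common cardiopharyngeal mesoderm, and the question addressed was where each LIM homeodomain gene was expressed in it, at which stage, and in how many cells Isl1 and Lhx2 were found together.

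After filtering, the libraries held 7118, 2884, 3921 and 7525 cells in order of stage, with median depths between 15205 and 35216 UMIs (distinct captured molecules) per cell. The deposited libraries held between 74920880 and 168407965 UMIs. Between 16 and 88 cell barcodes were shared by any pair of libraries. No stage had a replicate, so stages were not tested against each other, and intervals in parentheses are 95% intervals that cover counting error only (exact Poisson for levels, Clopper-Pearson for shares of cells). Levels are UMI counts of the summed cells of a group scaled to their total, in the usual unit CPM, and levels of different genes were not compared with each other. Fewer cells with a transcript and fewer transcripts per cell cannot be told apart in such a sum, and shares of cells are therefore given beside the sums where a result turns on them.

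Cells were assigned to compartments by marker genes, none of which is a LIM homeodomain gene. A cardiac progenitor-gated cell had a UMI of Nkx2-5 and UMIs of at least 3 of 6 heart genes (Nkx2-5, Mef2c, Gata4, Gata6, Hand2, Tbx5). A muscle progenitor-gated cell had a UMI of Msc, Myf5 or Myod1 and UMIs of at least 2 of 5 muscle progenitor genes (among them Tcf21, Msc, Myf5 and Myod1), and a mesenchyme-gated cell had a UMI of Prrx1 or Prrx2 and UMIs of at least 3 of 7 mesenchymal genes. Cells of blood, endothelium, heart muscle, nerve, neural crest and endoderm were set aside first by their own markers, and cells that passed more than 1 of the 3 progenitor gates were kept as classes of their own. In order of stage, the cardiac progenitor gate held 273, 52, 125 and 126 cells, the muscle progenitor gate 8, 11, 333 and 669, and the mesenchyme gate 3348, 1578, 1445 and 2954. The muscle gate was therefore summed only at E9.5 and E10.5, since a sum needed at least 20 cells. Of the cells of the cardiac gate, 92, 23, 55 and 41 carried just the minimum number of markers.

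Levels of the gate markers were compared between gates as a description. The comparison was no independent check, since the cardiomyocyte gate is defined by its 8 sarcomere genes and was set aside first. Cells that also passed the muscle gate were likewise not part of the cardiac gate. The summed level of 8 sarcomere genes of the heart muscle lay between 298 and 363 CPM in the cardiac progenitor gate, against 10837 to 21772 CPM in the cardiomyocyte gate. The 5 muscle progenitor markers summed to 385 CPM and 484 CPM in the muscle gate at E9.5 and E10.5 and to 177 CPM and 194 CPM in the cardiac gate, where 2 of the 5 were at 0. Mesenchyme markers did not separate the compartments as cleanly: Prrx2 stood at 164, 225, 290 and 147 CPM in the cardiac gate against 149, 183, 368 and 203 CPM in the mesenchyme gate. Twist1, by contrast, stood at 24.7, 19.4, 2.80 and 11.1 CPM in the cardiac gate against 140, 125, 47.4 and 126 CPM in the mesenchyme gate. Each gate is thus a range of cells by marker content and not a purified cell type. Hemoglobin transcripts of blood cells were frequent in all gates of the E8.25 and the E10.5 library. The 8 hemoglobin genes summed to 130, 3230, 6.07 and 4931 CPM in the cardiac gate and 184, 3112, 9.07 and 5041 CPM in the mesenchyme gate in order of stage.

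Isl1 (ENSMUSG00000042258, chromosome 13, 116298270 to 116309688, GRCm38) was the most widely expressed of the 5, with 20728 UMIs in the 4 libraries. Its level was highest in the cardiac progenitor gate at each stage, where it stood at 129 CPM (120–139) in the first and 125 CPM (110–143) in the second early library, then at 212 CPM (193–232) in that of E9.5 and at 316 CPM (291–341) in that of E10.5. The values of E9.5 and E10.5 stood above both early values and apart from each other by more than counting error. Cells that passed the cardiac and the mesenchyme gate together followed the same order at somewhat lower levels, with 96.5, 67.5, 166 and 235 CPM in order of stage.

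**Figure D1:**
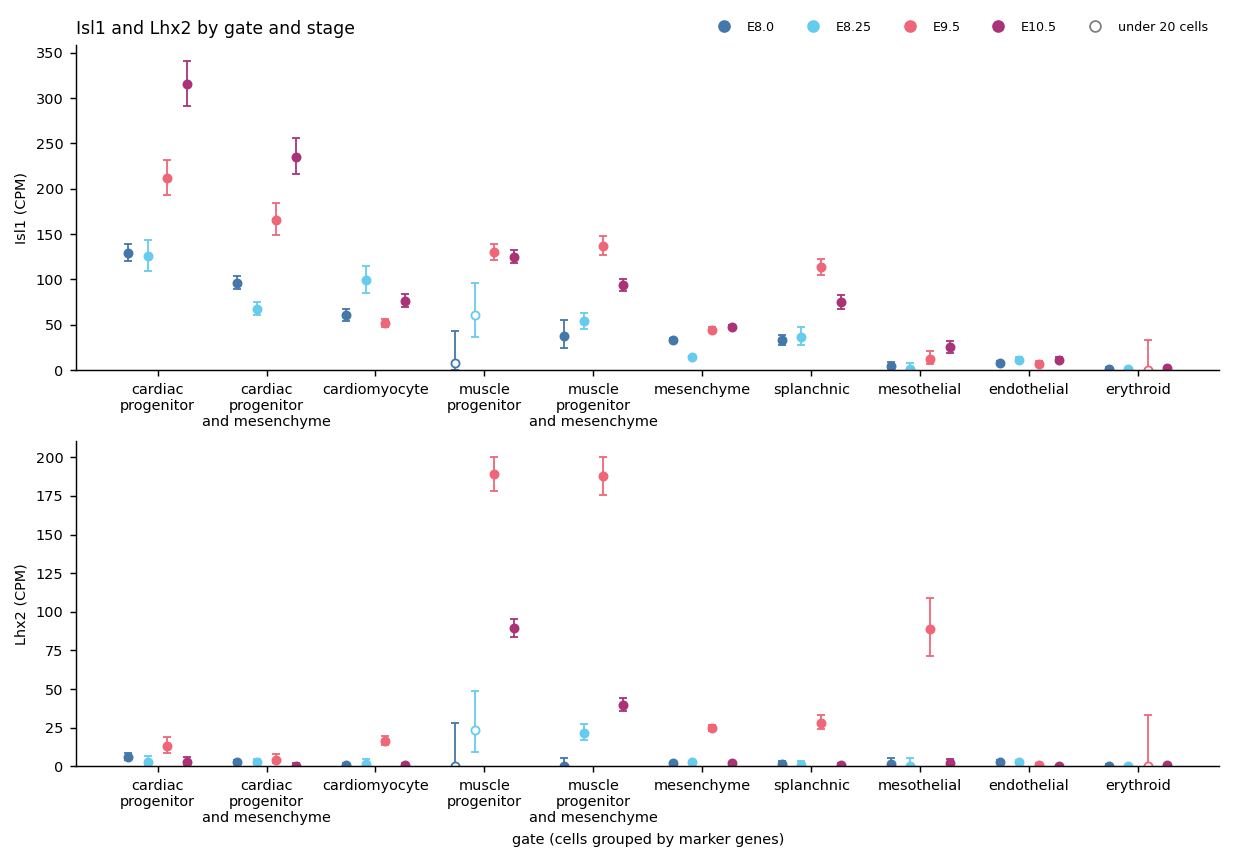
Levels of Isl1 (upper panel) and Lhx2 (lower panel) in CPM, by marker gate on the horizontal axis and by stage in colour. Points are the sum of all cells of a gate in 1 library, bars are exact Poisson 95% intervals and open circles are sums of under 20 cells. Isl1 is highest in the cardiac progenitor gate, at 316 CPM at E10.5, and Lhx2 in the muscle progenitor gate, at 189 CPM at E9.5.

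In the muscle progenitor gate Isl1 stood at 130 CPM (121–139) in the E9.5 and 125 CPM (118–132) in the E10.5 library, and these intervals overlapped. Only 1 Isl1 UMI was counted in the 8 muscle-gated cells of E8.0 and 18 in the 11 cells of E8.25. The mesenchyme gate held 33.4, 14.7, 44.6 and 48.0 CPM in order of stage, which is below the cardiac gate in each library. In the order of all gates and stages, the cardiac gate of E10.5 stood first, clear of the next value, while the double cardiac and mesenchyme gate of E10.5 and the cardiac gate of E9.5, which came next, had overlapping intervals. The muscle gates of E9.5 and E10.5 and the cardiac gates of E8.0 and E8.25 lay together between 125 and 130 CPM and could not be ordered.

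Heart muscle cells retained part of the Isl1 signal. The cardiomyocyte gate held 60.3, 99.0, 51.6 and 76.3 CPM in order of stage, in each library below the cardiac progenitor gate. Cells of the splanchnic gate (UMIs of at least 2 of the 5 genes Foxf1, Wnt2, Osr1, Hoxb1 and Barx1) held 33.2, 36.8, 113 and 74.9 CPM. The study used Foxf1, Wnt2 and Hoxb1, with Tbx5, to identify posterior second heart field, so this gate can include such cells. At the low end, endothelial cells held between 6.81 and 11.2 CPM, mesothelial cells between 1.39 and 25.0 CPM, and erythroid cells at most 2.32 CPM. Within the cardiac progenitor gate, cells without a UMI of Tbx5, a gene of the first heart field and the posterior second heart field, held 140, 266 and 372 CPM of Isl1 in the libraries of E8.0, E9.5 and E10.5. Those with a Tbx5 UMI held 91.3, 159 and 200 CPM, lower in each of these 3 libraries, while the E8.25 library had only 11 such cells.

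The difference in sum was also seen as a difference in the share of cells. With each cell thinned to 8000 UMIs, so that depth could not set the share, an Isl1 UMI was found in 59.6%, 53.8%, 73.3% and 78.9% of cardiac progenitor-gated cells in order of stage, against 79.9%, 78.8%, 88.8% and 90.5% without thinning. The thinned share in endothelial cells was 5.87%, 4.85%, 6.70% and 7.53%. It was lower in erythroid cells, with 1.54% at E8.0, 1.91% at E8.25 and 1.32% at E10.5. Before thinning, median depths in order of stage were 21674, 34060, 16797 and 16103.5 UMIs in the cardiac gate and 22548.5, 31827, 17265 and 17898 UMIs in the endothelial gate. Isl1 UMIs were thus found in a share of cardiac progenitor-gated cells well above the endothelial share of each library.

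Lhx2 (ENSMUSG00000000247, chromosome 2, 38339271 to 38369737, GRCm38) gave 6186 UMIs and a narrower pattern. Within its span lie the long non-coding RNAs Gm27197 and Gm13584, which together gave 36 UMIs, so that reads shared with them could be few. In the muscle progenitor gate Lhx2 stood at 189 CPM (178–200) in the E9.5 library and 89.2 CPM (83.4–95.4) in the E10.5 library. The 2 values were apart by more than counting error, and the cardiac progenitor and mesenchyme gates stayed far below them.

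At the early stages Lhx2 was in most gates close to its level in endothelial cells. Its highest early level was that of the 48 neural-gated cells of E8.25, with 33.1 CPM (25.3–42.6) from 60 UMIs. The cardiac progenitor gate held 6.04, 2.78, 13.1 (8.69–18.9) and 2.52 CPM in order of stage, and the mesenchyme gate 2.21, 2.74, 24.7 and 2.49 CPM. The cardiac gate of E9.5 rested on 28 UMIs, and its levels in the libraries before and after it on 5 UMIs each. In both gates the level at E9.5 exceeded that of the stage before and the stage after. Endothelial cells held between 0.40 and 2.91 CPM of Lhx2, and their early values, 2.91 and 2.81 CPM, were not below those of the mesenchyme gate.

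The first cells with a clear Lhx2 signal in the muscle compartment were those of E8.25 that passed the muscle and the mesenchyme gate together. These 79 cells held 21.8 CPM, against 0 CPM in the 29 such cells of E8.0 (a count of 0 that allows up to 4.32 CPM), and the class then held 188 CPM and 39.8 CPM in the 2 late libraries. The 11 cells of the muscle gate alone at E8.25 gave 7 Lhx2 UMIs. An Lhx2 UMI was present in 55.2% of thinned muscle-gated cells at E9.5 and in 33.1% at E10.5, against 65.5% and 37.2% without thinning. Endothelial cells gave 0% (0 of 224 cells, which allows up to 1.34%) and 0.538% at those stages after thinning. The median depth before thinning was 18129 and 13859 UMIs at the 2 late stages in the muscle gate, and 17265 and 17898 UMIs in the endothelial gate.

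Lhx2 was not confined to muscle progenitor-gated cells at E9.5. The mesothelial gate (Wt1, Upk3b, Tbx18 and other genes of the covering epithelium) held 88.7 CPM (71.3–109) at that stage, against 1.42 and 0 CPM in the 2 early libraries and 2.02 CPM at E10.5. Splanchnic cells held 28.1 CPM and cardiomyocyte-gated cells 16.5 CPM at E9.5, and at most 1.65 CPM at the other stages. Cells that passed no gate held 104.9 CPM in the E9.5 library and 18.0 CPM in the E10.5 library. Of all Lhx2 UMIs of the E9.5 library, 30.5% came from the muscle gate, 23.1% from the muscle and mesenchyme gate, 18.2% from ungated cells and 16.9% from the mesenchyme gate.

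Isl2 (ENSMUSG00000032318, chromosome 9, 55538677 to 55547667), the paralog of Isl1 that is best known from motor neurons, was rare, with 526 UMIs in all. Its highest levels were those of the cardiac classes in the E10.5 library. The cardiac progenitor gate held 0.862 and 2.78 CPM in the early libraries, each from 5 UMIs, then 4.20 CPM from 9 UMIs at E9.5 and 12.1 CPM (7.74–18.0) from 24 UMIs at E10.5. Cells of the double cardiac and mesenchyme gate went from 1.61 CPM in the E8.0 library to 20.2 CPM (14.8–27.0) in the E10.5 library. The level of E10.5 was above that of E8.0 by more than counting error in both classes. The mesenchyme gate stayed between 0.508 and 1.48 CPM, the cardiomyocyte gate at or below 0.849 CPM, and the muscle gate at 0.784 and 0.825 CPM in the late libraries. The splanchnic gate held 1.13, 2.54, 4.38 (2.81–6.52) and 1.75 CPM in order of stage, and its E9.5 value overlapped that of the cardiac gate within counting error.

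**Figure D2:**
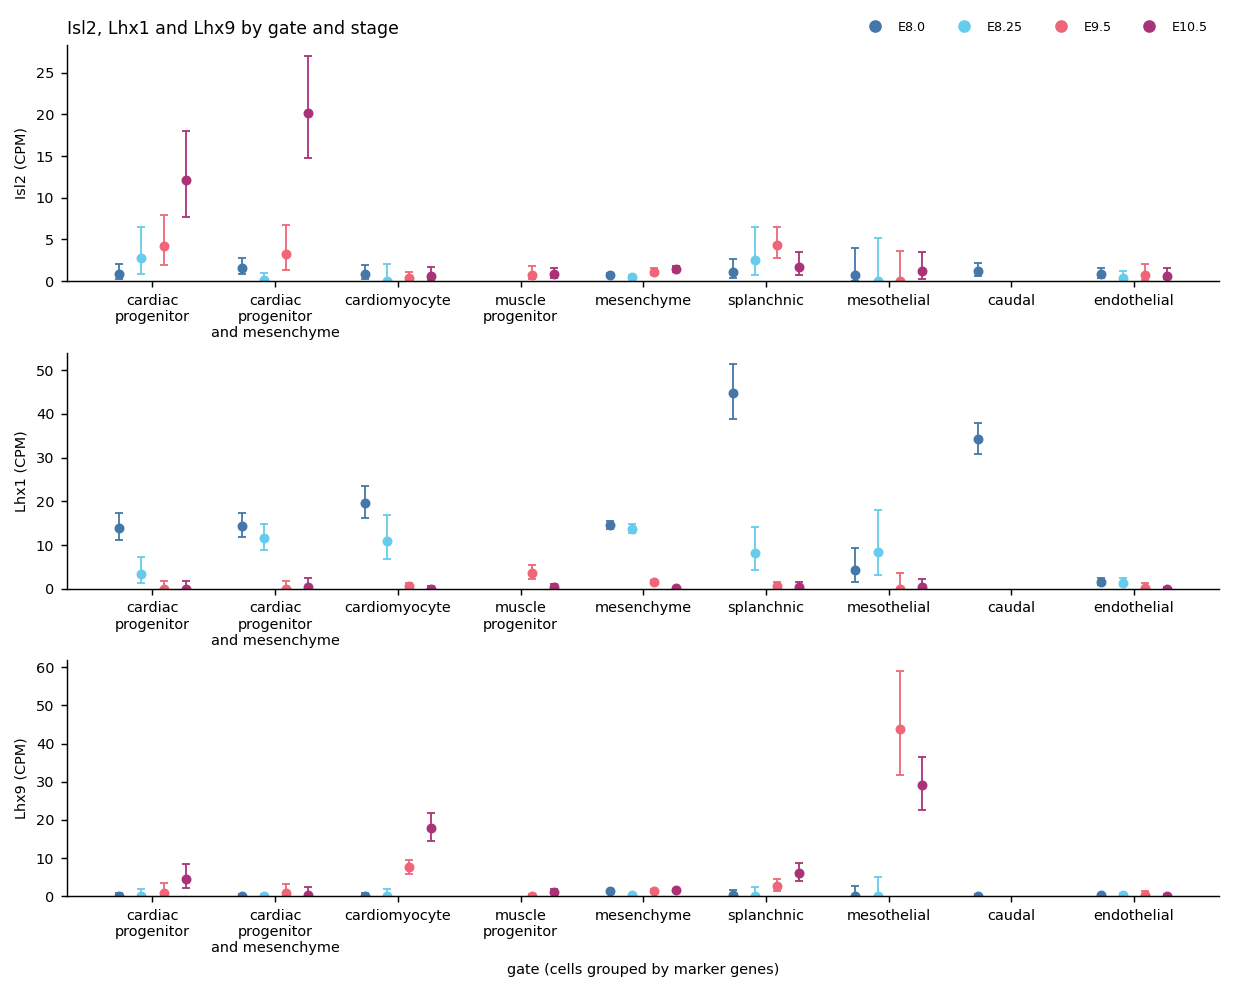
Levels of Isl2, Lhx1 and Lhx9 in CPM, by marker gate on the horizontal axis and by stage in colour, for sums of at least 20 cells. Points are sums of all cells of a gate in 1 library and bars are exact Poisson 95% intervals. Isl2 reaches 20.2 CPM in the double cardiac and mesenchyme gate at E10.5, Lhx1 44.8 CPM in splanchnic cells at E8.0 and Lhx9 43.9 CPM in mesothelial cells at E9.5.

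Lhx1 (ENSMUSG00000018698, chromosome 11, 84517975 to 84525534), a regulator of the early mesoderm and of the developing kidney, had the opposite course. In splanchnic cells it stood at 44.8, 8.24, 0.548 and 0.438 CPM in order of stage. Cdx-bearing caudal cells, which were numerous only at E8.0, held 34.2 CPM. The cardiac progenitor gate held 13.97 and 3.33 CPM at the early stages and no UMI in either late library, where a count of 0 allows up to 1.40 CPM and 1.51 CPM. Cardiomyocyte-gated cells went from 19.7 and 11.003 CPM at the early stages to 0.536 CPM and 0 CPM (up to 0.571 CPM allowed) at the late ones, and mesenchyme-gated cells from 14.5 and 13.8 CPM to 1.51 and 0.287 CPM. Lhx1 was thus low at both late stages in each of these gates that then held cells. Among late sums of at least 20 cells, its highest level was that of the muscle gate at E9.5, 3.61 CPM (2.29–5.41) from 23 UMIs. That value lay above the mesenchyme gate of the same library, at 1.51 CPM (1.08–2.05), by more than counting error. At E10.5 the muscle gate held 0.413 CPM from 4 UMIs.

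Lhx9 (ENSMUSG00000019230, chromosome 1, 138825186 to 138848839), the closest relative of Lhx2 and a gene of the gonad and of body-cavity linings, gave 647 UMIs. It was found in the mesothelial gate of the late stages, with 43.9 CPM (31.9–58.9) and then 29.0 CPM (22.7–36.6), and gave no UMI there at either early stage, which allows up to 2.14 and 4.17 CPM. The 2 late intervals overlapped. Cardiomyocyte-gated cells held 0.17, 0, 7.61 and 17.9 CPM in order of stage, and 40.1% of the Lhx9 UMIs of the E9.5 library lay in that gate. The summed level of 7 mesothelial markers in the cardiomyocyte gate was also higher at the late stages, with 73.2, 83.1, 265 and 739 CPM, and its part in the Lhx9 level was not tested. Lhx9 was low in the muscle gate, with 0 CPM (up to 0.470 CPM allowed) and 1.13 CPM at the late stages, and in the cardiac progenitor gate, with 4.53 CPM from 9 UMIs at E10.5 as the highest value.

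Over whole libraries, the step from E8.25 to E9.5, at which the dissected region also changed, held the largest differences between consecutive stages for each of the 5 genes. Isl1 went from 20.3 to 77.6 CPM, a log2 ratio of 1.93 (1.86–2.004). Lhx2 went from 3.45 to 56.0 CPM, a log2 ratio of 4.02 (3.87–4.18), and Lhx9 from 0.236 to 2.51 CPM, a log2 ratio of 3.41 (2.80–4.08). These 3 genes were at least 2-fold higher at E9.5, as were 11.1% of the 12018 genes with a mean of at least 1 CPM at this step. Isl2, whose mean was under 1 CPM, went from 0.481 to 1.37 CPM, a log2 ratio of 1.51 (1.01–2.03). Lhx1 went from 8.99 to 1.40 CPM, a log2 ratio of -2.68 (-2.99 to -2.38), and 3.99% of genes were at least 2-fold lower.

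From E9.5 to E10.5 Lhx2 was at least 2-fold lower. Its level went from 56.0 to 11.8 CPM, a log2 ratio of -2.25 (-2.33 to -2.16). At this step 3.67% of the 12302 genes with a mean of at least 1 CPM were at least 2-fold lower. Lhx1, whose mean was under 1 CPM, had a log2 ratio of -2.49. Isl1 had a log2 ratio of -0.44, which became -0.10 without the erythroid-gated cells, of which there were 4 in the E9.5 and 1026 in the E10.5 library. The Lhx2 difference was present within the mesenchyme gate alone, where the log2 ratio was 3.17 from E8.25 to E9.5 and -3.31 from E9.5 to E10.5. With 1 library per stage, stage and library cannot be told apart, and at the step from E8.25 to E9.5 neither can the dissected region.

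Compartments, unlike stages, were present in several libraries, and were compared with edgeR's quasi-likelihood test on the summed counts of 14 gate and library combinations, with library as a block and Benjamini-Hochberg adjustment over 12598 genes. The 4 comparisons share sums and are not independent of each other. Libraries from separate pools at separate stages served as replicates, so that the p-values measure whether a difference between compartments recurred across them.

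In the comparison of cardiac with muscle progenitors, Lhx2 was the 1 LIM homeodomain gene of the 5 that edgeR called. It stood at 6.10 ± 4.92 CPM (SD, n = 4) in the cardiac gate and 139 ± 70.5 CPM (SD, n = 2) in the muscle gate, a log2 fold change of -4.02 ± 0.58 (SE, edgeR adjusted p = 0.00363), and was lower in the cardiac gate in 2 of 2 shared libraries. Of the 5 genes, 1 was called, beside 3.96% of all genes (2.31% higher in the cardiac gate and 1.65% lower). An unadjusted edgeR p under 0.05 was found for 3 of the 5, and DESeq2 called 3 of the 5, beside 860 of 13723 genes. Isl1 stood at 196 ± 89.4 CPM (SD, n = 4) in the cardiac gate and 127 ± 3.66 CPM (SD, n = 2) in the muscle gate. It was higher in the cardiac gate in 2 of 2 shared libraries. Isl1 did not pass the test (log2 fold change 0.75 ± 0.38, edgeR adjusted p = 0.332), although it passed when the fit held only these 2 gates (0.95, edgeR adjusted p = 0.000884). Isl2, with a log2 fold change of 2.79 ± 0.73 (edgeR adjusted p = 0.0580), stood close to the threshold and passed it without the E8.0 library (3.18, edgeR adjusted p = 0.00853). Leaving out the E9.5 or the E10.5 library lowered the share of genes called from 3.96% to 0.806% and 1.19%, while Lhx2 remained called. Each of these fits leaves the muscle gate with 1 sum, which is assumed to vary like the sums of the other gates.

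**Figure D3:**
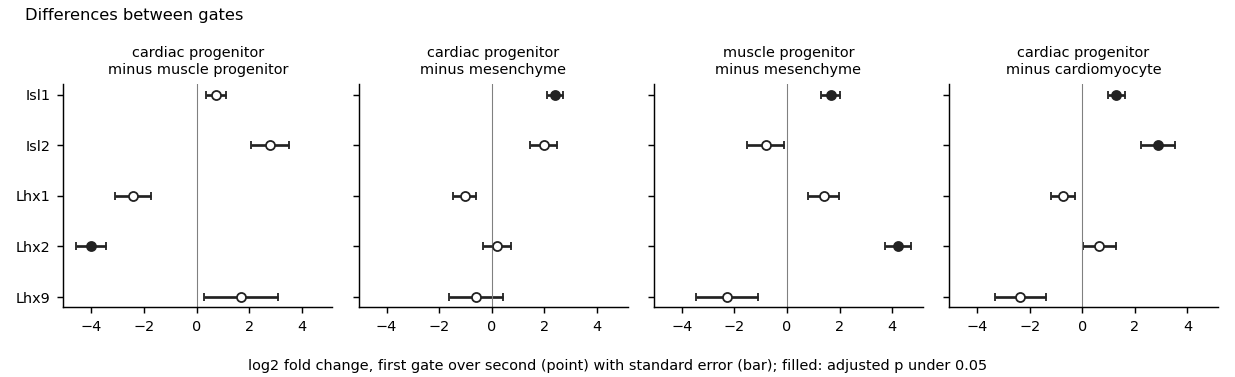
Differences of the 5 LIM homeodomain genes between gates in 4 comparisons, 1 panel each. Points are log2 fold changes of the first gate over the second from the edgeR fit, bars are standard errors and filled points have an adjusted p under 0.05. Lhx2 is filled in both comparisons that hold the muscle gate, at -4.02 and 4.20, Isl1 is filled in the 3 comparisons other than that of cardiac with muscle progenitors, and Isl2 is filled against cardiomyocytes at 2.88.

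Against mesenchyme, Isl1 separated the cardiac progenitors. It stood at 196 ± 89.4 CPM (SD, n = 4) in the cardiac gate and 35.2 ± 15.0 CPM (SD, n = 4) in the mesenchyme gate, a log2 fold change of 2.41 ± 0.31 (SE, edgeR adjusted p = 0.00221), and was higher in 4 of 4 libraries. It was the 1 gene of the 5 that was called, beside 2.21% of all genes (1.24% higher in the cardiac gate and 0.976% lower). Lhx2 gave no difference in a fixed direction, with 6.10 ± 4.92 CPM in the cardiac gate against 8.02 ± 11.1 CPM in the mesenchyme gate and a log2 fold change of 0.19 ± 0.53 (edgeR adjusted p = 0.949) that turned to -0.51 without the E8.0 library. Isl2, at 4.98 ± 4.93 CPM against 0.973 ± 0.415 CPM, had a log2 fold change of 1.98 ± 0.51 (edgeR adjusted p = 0.0769) and passed the threshold without the E8.0 library (edgeR adjusted p = 0.0152). The share of genes called went from 2.21% to 0.845%, 0.960% and 1.22% without the E8.25, E9.5 and E10.5 library, and Isl1 was called in each of these fits.

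Muscle progenitors differed from mesenchyme in both Lhx2 and Isl1. Lhx2 stood at 139 ± 70.5 CPM (SD, n = 2) against 8.02 ± 11.1 CPM (SD, n = 4), a log2 fold change of 4.20 ± 0.50 (SE, edgeR adjusted p = 0.00173), and Isl1 at 127 ± 3.66 CPM against 35.2 ± 15.0 CPM, a log2 fold change of 1.66 ± 0.36 (SE, edgeR adjusted p = 0.0293). Both were higher in 2 of 2 shared libraries, and these 2 of 5 genes were called beside 3.26% of all genes (1.37% higher in the muscle gate and 1.89% lower). The call of Isl1 was lost without the E9.5 library (edgeR adjusted p = 0.370) and without the E10.5 library (edgeR adjusted p = 0.142), each of which again leaves the muscle gate with 1 sum, whereas Lhx2 remained called with 3.16 to 5.35. The share of genes called, 3.26%, was 0.461% and 1.23% without the E9.5 and the E10.5 library.

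Both Isl genes were higher in cardiac progenitors than in heart muscle cells. Isl1 stood at 196 ± 89.4 CPM (SD, n = 4) against 71.8 ± 20.8 CPM (SD, n = 4) in the cardiomyocyte gate, a log2 fold change of 1.30 ± 0.31 (SE, edgeR adjusted p = 0.0107). Isl2 stood at 4.98 ± 4.93 CPM against 0.462 ± 0.354 CPM, a log2 fold change of 2.88 ± 0.66 (SE, edgeR adjusted p = 0.00828), and both were higher in 4 of 4 libraries. These 2 of 5 genes were read beside 27.5% of all genes called (13.0% higher in the cardiac gate and 14.5% lower), the largest share of the 4 comparisons. Both calls were lost without the E9.5 library (edgeR adjusted p = 0.0957 for Isl1 and 0.101 for Isl2) and without the E10.5 library (0.0698 and 0.107), and Lhx2, at 0.65 ± 0.62 (edgeR adjusted p = 0.487), was called without the E9.5 library (1.88, edgeR adjusted p = 0.0349). Without the E9.5 library 9.70% of genes were called.

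Lhx1 and Lhx9 did not pass the edgeR test in any of the 4 comparisons. Lhx1 came nearest in cardiac against muscle progenitors (log2 fold change -2.42 ± 0.69, edgeR adjusted p = 0.0756), where it was called by DESeq2 (adjusted p = 0.0160) and without the E8.0 library (edgeR adjusted p = 0.0173). Its unadjusted edgeR p was also under 0.05 in cardiac progenitors against mesenchyme (0.0360) and in muscle progenitors against mesenchyme (0.0331). Lhx9 came nearest in cardiac progenitors against cardiomyocytes (-2.36 ± 0.97, edgeR adjusted p = 0.0951, unadjusted 0.0328), where it was called without the E8.0 library (edgeR adjusted p = 0.0437). The median log2 fold change of the 5 LIM homeodomain genes was 0.75, 0.19, 1.39 and 0.65 in the 4 comparisons in the order given, against -0.01, -0.03, -0.01 and -0.01 over all genes tested.

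Of 10 genes of the LIM complex (the Ldb adaptors, the Ssbp proteins that stabilise them, the ubiquitin ligase Rlim and the Lmo proteins, which compete for Ldb), 1 was called in cardiac against muscle progenitors (beside 3.96% of all genes) and 1 in cardiac progenitors against mesenchyme (beside 2.21%). It was Lmo4 in both cases. Lmo4 stood at 63.8, 68.8, 58.8 and 49.3 CPM in the cardiac gate in order of stage, at 108 and 94.8 CPM in the muscle gate at E9.5 and E10.5, and at 143, 228, 99.7 and 110 CPM in the mesenchyme gate. The cardiac gate was lowest in every library, with log2 fold changes of -1.08 ± 0.16 (SE, edgeR adjusted p = 0.00446) against muscle and -1.26 ± 0.13 (SE, edgeR adjusted p = 0.000582) against mesenchyme. Between muscle progenitors and mesenchyme no gene of the list was called by edgeR or by DESeq2, and 0 of the 10 had an unadjusted p under 0.05.

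Against heart muscle cells, 2 LIM complex genes were higher in cardiac progenitors and 1 was lower, beside 27.5% of all genes called (13.0% higher and 14.5% lower). Lmo1 stood at 16.6 ± 18.0 CPM against 3.78 ± 3.41 CPM (SD, n = 4 each), a log2 fold change of 1.92 ± 0.43 (SE, edgeR adjusted p = 0.00719). The adaptor Ldb1 differed by 0.41 ± 0.13 (SE, edgeR adjusted p = 0.0352) and Lmo4 by -0.39 ± 0.13 (SE, edgeR adjusted p = 0.0489). The list's median log2 fold change was -0.24, -0.02, 0.04 and 0.20 in the 4 comparisons in the order given. Of 7 further LIM homeodomain genes, only Lmx1a was expressed enough to be tested, and it was not called (edgeR adjusted p between 0.128 and 0.783; 1 unadjusted p under 0.05, 0 calls by DESeq2).

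Other regulators of the cardiopharyngeal mesoderm gave the setting in which Isl1 and Lhx2 were found. Of 18 such genes, 2 were higher and 3 lower in cardiac than in muscle progenitors, beside 3.96% of all genes called. The transcription factor Ebf1 (log2 fold change -4.06 ± 0.69, edgeR adjusted p = 0.00790) and the transcriptional coactivator Eya1 (-2.92 ± 0.29, edgeR adjusted p = 0.000287) were lower, as was Lhx2, and the ligand Bmp4 (2.72 ± 0.33, edgeR adjusted p = 0.00117) was higher. Between muscle progenitors and mesenchyme 3 genes of the list were higher and 3 lower (3.26% of all genes were called), among them the ligand Fgf10 (2.17 ± 0.30, edgeR adjusted p = 0.00289), the forkhead factor Foxc2 (-2.46 ± 0.42, edgeR adjusted p = 0.00844) and Bmp4 (-1.79 ± 0.32, edgeR adjusted p = 0.0121).

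Where Isl1 was higher, in cardiac progenitors against mesenchyme, 2 genes of the list were higher and 4 lower, beside 2.21% of all genes called. The ligands Fgf8 (2.15 ± 0.32, edgeR adjusted p = 0.00544) and Fgf10 (1.54 ± 0.27, edgeR adjusted p = 0.0120) were higher, and the transcription factor Ebf3 (-1.79 ± 0.34, edgeR adjusted p = 0.0183) was lower. Against heart muscle cells 8 were higher in cardiac progenitors and 2 lower, beside 27.5% of all genes called. The largest differences were those of Six2 (3.45 ± 0.43, edgeR adjusted p = 0.000235), Tbx1 (2.54 ± 0.46, edgeR adjusted p = 0.00223) and the homeobox gene Tlx1 (2.54 ± 0.85, edgeR adjusted p = 0.0445), which were higher, and of Shox2 (-2.73 ± 0.91, edgeR adjusted p = 0.0448), a gene of the pacemaker region, which was lower. The median log2 fold change of the list was -0.13, -0.45, 0.10 and 1.07 in the 4 comparisons.

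Isl1 and Lhx2 were found together in single cells at every stage. A UMI of both was present in 147, 126, 488 and 316 cells in order of stage. With cells thinned to 8000 UMIs, the share with an Lhx2 UMI was 1.73% (1.10–2.59) among cells with an Isl1 UMI and 1.29% among the others at E8.0, and 6.34% (4.02–9.44) against 1.98% at E8.25. It was 25.5% (22.9–28.2) against 15.0% at E9.5 and 14.2% (12.5–16.1) against 2.81% at E10.5. The share was higher among Isl1 cells in 4 of 4 libraries, at E8.0 within counting error, by 6.68 percentage points on average (SD 5.20, n = 4). The exact two-sided sign-flip permutation test gave p = 0.125, the smallest value it allows with 4 libraries. When at least 2 UMIs of each gene were asked for, the share was higher in 2 of 4 libraries (3.99 points, exact permutation p = 0.5).

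After thinning, an Lhx2 UMI was found in 1.42%, 2.20%, 0% and 0.538% of endothelial cells, beside which these shares were read. Erythroid cells, with lower Lhx2 levels at both early stages, were not used in this reading. At E8.0 the share among Isl1 cells did not stand above that of endothelial cells. Without thinning the shares were 6.06% against 3.56%, 15.8% against 5.23%, 31.4% against 17.2% and 15.1% against 3.37% in order of stage. Read the other way, an Isl1 UMI was found in 25.3%, 30.6%, 42.3% and 58.3% of the thinned Lhx2 cells in order of stage. These shares also depend on how frequent Isl1 was in each library, and by themselves they measure no overlap beyond that.

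**Figure D4:**
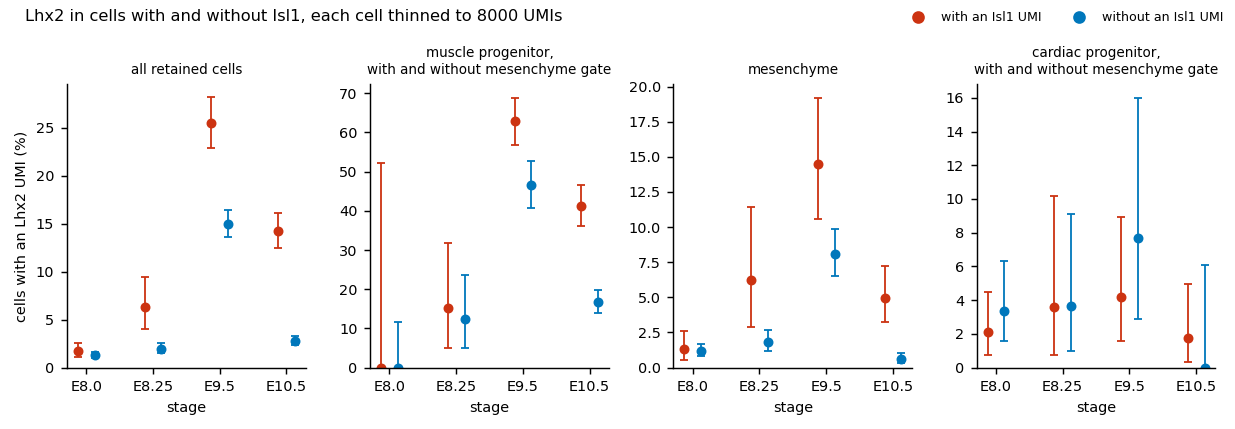
Share of cells with an Lhx2 UMI in percent among cells with (red) and without (blue) an Isl1 UMI, by stage, for all retained cells and for 3 groups of gated cells, each cell thinned to 8000 UMIs. Points are shares in 1 library and bars are Clopper-Pearson 95% intervals; the vertical axes differ. In all retained cells the share is higher with Isl1 in 4 of 4 libraries, reaching 25.5% at E9.5.

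At the late stages the share of Isl1 cells with an Lhx2 UMI was higher in the muscle gate than in the mesenchyme or the cardiac progenitor gate. In the muscle gate at E9.5, 61.4% (53.2–69.2) of Isl1 cells and 49.7% of the others had an Lhx2 UMI, and at E10.5 46.8% (40.1–53.6) against 25.0%. The mean over these 2 libraries was 54.1% against 37.4%, where the exact permutation test cannot go below p = 0.5. With the cells of the double muscle and mesenchyme gate added, the share was 15.2% against 12.3% at E8.25, 62.9% against 46.6% at E9.5 and 41.3% against 16.8% at E10.5, while the 35 such cells of E8.0 held no Lhx2 UMI. In mesenchyme the shares were lower but in the same order, with 1.31% against 1.20%, 6.21% against 1.82%, 14.5% against 8.07% and 4.94% against 0.59% (mean difference 3.82 points, higher in 4 of 4 libraries, exact permutation p = 0.125, the smallest possible).

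In cardiac progenitor-gated cells no common direction was seen. There 3.29% of Isl1 cells and 4.85% of the others had an Lhx2 UMI at the first stage, followed by 0% and 4.17%, 3.53% and 12.9%, and 3.33% and 0% at the later ones. Lhx2 was more frequent among Isl1 cells in 1 of 4 libraries, with a mean difference of -2.94 points (exact permutation p = 0.375), and in 2 of 4 without thinning (exact permutation p = 0.5). These shares rest on 1 to 10 Lhx2 cells per library, so a difference was not detectable at this depth.

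The 4 combinations of Isl1 and Lhx2 in the muscle compartment, with and without the mesenchyme gate, differed in the other genes they carried. At E9.5 the compartment held 255 cells with both, 81 with Isl1 only, 102 with Lhx2 only and 109 with neither, and at E10.5 223, 225, 106 and 540. Median depth was higher in cells with both (20421 UMIs at E9.5 and 16691 at E10.5) than in cells with neither (17433 and 14453), and its part in the split was not tested. Tbx1, the T-box factor of the pharyngeal mesoderm, stood at 301 CPM in cells with both, 102 CPM with Isl1 only, 288 CPM with Lhx2 only and 26.5 CPM with neither at E9.5, and at 166, 82.1, 128 and 35.0 CPM at E10.5. Tbx1 was thus higher in both Lhx2 groups than in both groups without Lhx2.

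Ebf1 went the same way. At E9.5 Ebf1 stood at 254 CPM with both, 134 CPM with Isl1 only, 297 CPM with Lhx2 only and 53.9 CPM with neither, and at E10.5 at 356, 133, 468 and 62.6 CPM. The Lhx2 cells were high in Ebf1 with or without Isl1.

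Tcf21, Tlx1 and Lmo4, like Tbx1 and unlike Ebf1, were highest where both genes were found. Tcf21, a factor of the early branchiomeric progenitors, stood at 177, 115, 135 and 63.9 CPM at E9.5 and 225, 182, 116 and 95.1 CPM at E10.5, in the order both, Isl1 only, Lhx2 only and neither. Tlx1 stood at 90.8, 62.1, 28.3 and 5.5 CPM at E9.5 and 40.7, 16.0, 12.3 and 1.6 CPM at E10.5. Lmo4 stood at 159, 88.4, 98.5 and 69.4 CPM at E9.5 and 168, 105.2, 66.3 and 76.2 CPM at E10.5.

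The myogenic factor Myod1 at E10.5 stood at 4.1 CPM with both, 19.96 CPM with Isl1 only, 45.8 CPM with Lhx2 only and 20.6 CPM with neither. Myf5, its upstream relative, was higher in both Lhx2 groups, with 51.9 and 41.5 CPM at E9.5 against 8.1 CPM with Isl1 only and 8.0 CPM with neither. Tcf21, Myf5 and Myod1 are markers of the gate itself, so their levels here describe cells chosen in part by them.

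Cells with at least 2 Lhx2 UMIs were further divided by UMIs of Tbx1 and of Gata4, a heart and splanchnic factor, a division chosen after their values had been seen and given without a test. At E9.5, 418 of 642 such cells had Tbx1 without Gata4, 171 had Gata4 without Tbx1, 19 had both and 34 neither. An Isl1 UMI was present in 75.6% (71.2–79.6) of the Tbx1 group and in 15.8% (10.7–22.1) of the Gata4 group, at median depths of 19727 and 17335 UMIs. Most of the Tbx1 group lay in the muscle gate (176 cells) or the double muscle and mesenchyme gate (109 cells), and the Gata4 group was spread over the mesenchyme (64), splanchnic (30), cardiomyocyte (28), ungated (23) and mesothelial (18) classes.

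The Lhx2 cells with Gata4 at E9.5 differed from those with Tbx1 in the other genes they carried. Wt1 is a marker of the mesothelial gate and Foxf1 of the splanchnic gate, and most of these cells lay in neither class. In them Alcam stood at 548 CPM, Wt1 at 61.0 CPM, Hand1 at 72.9 CPM and Foxf1 at 117 CPM, against 8.03, 0.679, 1.47 and 5.55 CPM in the Lhx2 cells with Tbx1. Msc and Ebf1, at 60.7 CPM and 260 CPM in the Tbx1 group, stood at 1.78 CPM and 20.4 CPM in the Gata4 group. Lhx9 stood at 7.41 CPM in the Gata4 group.

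**Figure D5:**
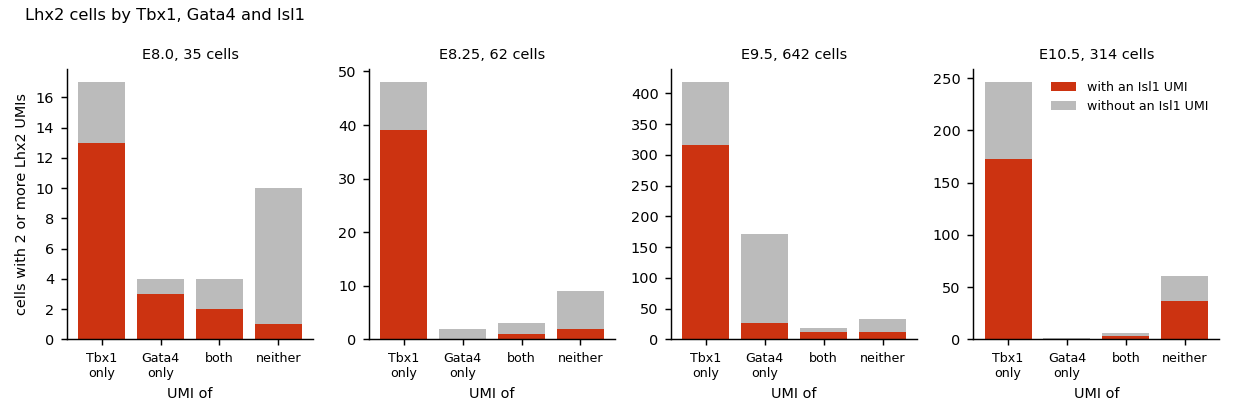
Number of cells with at least 2 Lhx2 UMIs, by stage, divided by UMIs of Tbx1 and Gata4 on the horizontal axis and by the presence of an Isl1 UMI in colour; the vertical axes differ. At E9.5 there are 418 cells with Tbx1 only, of which 75.6% have Isl1, and 171 with Gata4 only, of which 15.8% have Isl1, and at E10.5 the corresponding numbers of cells are 246 and 1.

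Lhx2 cells with Gata4 and without Tbx1 were numerous only in the E9.5 library. At E10.5, of 314 Lhx2 cells, 246 had Tbx1 without Gata4 and 1 had Gata4 without Tbx1, and Isl1 was present in 70.3% (64.2–76.0) of the former. A further 61 Lhx2 cells of E10.5 had neither gene, and Isl1 was present in 60.7% (47.3–72.9) of them. At E8.25 the numbers were 48 and 2 of 62 cells, with Isl1 in 81.3% (67.4–91.1) of the 48. At E8.0 they were 17 and 4 of 35 cells, with Isl1 in 76.5% of the 17. There 3 of the 4 cells with Gata4 only also had Isl1, and a further 4 cells had both Tbx1 and Gata4. The lower Isl1 share of the Gata4 group at E9.5 was thus not seen in these few cells. The Isl1 share of the Tbx1 group thus lay between 70.3% and 81.3% at the 4 stages.

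The genes with the pattern most like each LIM homeodomain gene were ranked by Pearson's r of log2(CPM + 1) over 48 sums of gate and library, as a description in which sums of 1 library share their depth and preparation. For Isl1 these were Jag1, a ligand of the Notch receptors, with r = 0.86, then Dnah7a (0.83), Ptbp2 (0.82), Shd (0.80) and Lgi2 (0.80). For Lhx2 they were the homeobox genes Emx1 (0.77) and Barhl2 (0.77), then Frem2 (0.75), Rxrg (0.73) and Cyp1b1 (0.73), and for Isl2 Crhbp (0.76), Gm5127 (0.74), Tmem29 (0.72), Gcg (0.72) and Msantd1 (0.70).

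Lhx1 was most like Lhx1os (0.91), a neighbouring non-coding RNA whose span begins at 84525660 on chromosome 11, just past that of Lhx1, and which gave 1145 UMIs. Greb1l (0.87), Gfra3 (0.87), Plk4 (0.83) and Trim71 (0.83) followed. Lhx9 was most like Tm4sf5 (0.88), Cpz (0.88), Arhgap22 (0.86), Gm15498 (0.84) and Sowahd (0.83). Among the 5 genes themselves, r was 0.61 for Isl1 with Isl2 and 0.45 for Isl1 with Lhx2, while Isl1 with Lhx1 gave 0.02, Isl1 with Lhx9 0.13 and Lhx1 with Lhx9 -0.35.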

How the data were processed

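GFP-positive cells of 4 libraries, 1 per stage, were profiled with the 10x Genomics 3' v2 kit. Per the submitters' processing notes, the authors used Cell Ranger 3.1.0 and mm10, and they deposited raw UMI counts per gene and cell. Counts were used as deposited. Further libraries of the study were not used here.

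Retained cells had at least 1000 genes and at most 10% mitochondrial UMIs (4, 2, 3 and 28 cells failed in order of stage), and the highest Scrublet scores (scanpy 1.11.5) were removed at 0.8% per 1000 cells (459, 70, 131 and 517 cells), since the automatic threshold of Scrublet called 0.0247% of the E9.5 cells. Markers assigned cells to gates. Thinned shares used 8000 UMIs per cell and left out 501, 8, 249 and 803 shallower cells. A count of 0 was given a limit of 3 counts.

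Sums per gate and library (at least 20 cells) were fitted together with edgeR 4.0.16 (TMM, glmQLFit, glmQLFTest, library as block, 4 gates, R 4.3.3), with calls at an adjusted p under 0.05. DESeq2 1.42.0, other filters, gates, scalings and depths, and fits without each library were alternatives. The test script was tested on simulated data. Gene coordinates are those of GRCm38.p6. The genes, gates and lists were chosen with earlier results of these data known. Named were the 5 genes, up to 4 called genes per list and comparison with the largest change (some results are not reported here), and the 5 genes of highest r per member among genes reaching 5 CPM in at least 1 sum, gate markers left out; genes named in the divisions of cells by Isl1, Lhx2, Tbx1 and Gata4 were chosen after their values were seen. Python 3.11.15, numpy 2.4.6, scipy 1.17.1 and pandas 2.3.3 were used.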

Additional observations from a re-analysis of the deposited data

How the results depend on the processing

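Stages could not be paired with each other, because each had 1 library from its own pool of embryos. Gates were compared with library as a block in the main fit. The sign-flip test paired cells with and without Isl1 of the same library. Looser gates left 52, 4, 14 and 21 cardiac-only cells and ended most calls: Lhx2 in cardiac against muscle progenitors (-3.20, edgeR adjusted p = 0.850) and in muscle against mesenchyme (3.03, edgeR adjusted p = 0.205), and Isl1 against mesenchyme (2.77, 0.400 for cardiac; 1.35, 0.353 for muscle) and against cardiomyocytes (1.06, 0.394), with 0.0231%, 0.0154%, 0.477% and 5.06% of genes called in the 4 comparisons. Without the library block Lhx2 lost its calls (-4.50, edgeR adjusted p = 0.125; 4.13, 0.195), as did Isl1 in muscle against mesenchyme (1.84, 0.0801), with 0.738%, 0.325%, 0.357% and 7.04% of genes called. With only the compared gates fitted, Isl1 passed in cardiac against muscle progenitors (0.95, edgeR adjusted p = 0.000884), and 8.67%, 5.34% and 21.4% of genes were called in cardiac against muscle, muscle against mesenchyme and cardiac against cardiomyocyte. Counting cells of a double gate with mesenchyme in the progenitor gate, an alternative chosen after seeing the data, ended the call of Isl1 in muscle against mesenchyme (1.32, edgeR adjusted p = 0.0789; 1.505% of genes called). DESeq2 called 6.27% of genes in cardiac against muscle and 3.52% in cardiac against mesenchyme. With no filter on low counts, and so more genes tested, 466 genes (2.23%) were called in cardiac against mesenchyme instead of 279, and 14.8% against cardiomyocytes, where thinned counts gave 16.9%.

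Values that were not called changed sign for Lhx2 in cardiac against mesenchyme (-0.37 without the block, -0.17 with looser gates, -0.23 thinned, -0.18 with double-gate cells counted so) and against cardiomyocytes (-0.043 thinned), for Lhx1 (1.43 and -2.07 without the block against and in muscle, 0.17 against cardiomyocytes with looser gates), for Lhx9 (-7.93 and 1.01 with looser gates in cardiac against muscle and muscle against mesenchyme, 0.052 without the block in cardiac against mesenchyme) and for Isl2 in muscle against mesenchyme (0.15 with stricter and 0.51 with looser gates). The cause was not tested. Fits without single libraries gave, in cardiac against muscle, cardiac against mesenchyme, muscle against mesenchyme and cardiac against cardiomyocyte, log2 fold changes of 0.47 to 0.92, 2.26 to 2.59, 1.48 to 1.87 and 1.08 to 1.64 for Isl1, and of -4.63 to -3.00, -0.51 to 0.72, 3.16 to 5.35 and -0.092 to 1.88 for Lhx2, with 0.806% to 4.34%, 0.845% to 1.64%, 0.461% to 3.18% and 9.70% to 23.2% of genes called; Lhx9 in cardiac against mesenchyme went from -2.02 to 0.44, and the mean difference in Lhx2 share from 5.11 to 8.76 points. The log2 ratio of E9.5 to E8.25 was 1.76 (TMM totals) and 1.70 (without erythroid cells) for Isl1 and 3.85, 3.79 and, as a mean over cells, 3.84 for Lhx2, and that of E10.5 to E9.5 was -0.29, -0.10 and -0.30 for Isl1 and -2.09, -1.91 and -2.05 for Lhx2. The mean difference in Lhx2 share between cells with and without Isl1 was 9.77 points unthinned, 4.52 at 4000 UMIs, 5.83 without doublet removal and 3.99 when at least 2 UMIs were asked for (higher in 2 of 4 libraries). With looser gates, gate levels went, for Isl1, from 125 to 7.17 CPM in the cardiac gate at E8.25, which then held 4 cells, and from 48.0 to 28.7 CPM in mesenchyme at E10.5, and for Lhx2 from 24.7 to 9.10 CPM in mesenchyme at E9.5. In all, 134 values for Isl1, Lhx2, their overlap and the shares of genes called kept their direction and side of the threshold or moved little. Of the others, 36 moved further, 7 changed sign, 13 lost a call and 2 gained one. For gate levels and for fold changes of Isl2, Lhx1 and Lhx9, 246 values were kept in this sense. A further 49 moved, 9 changed sign, 3 lost a call and 14 gained one. Isl2, Lhx1 and Lhx9 rest on few UMIs, which limits their levels most.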
